A study of Homo sapiens with 12 samples.

Results

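The 9 genes described here, CDKN1A, MDM2, BBC3, PMAIP1, GADD45A, GADD45B, SESN1, TP53I3 and ZMAT3, were listed as direct targets of the transcription factor p53. GADD45B is the least typical of them, being better known as a target of other pathways. They were chosen by symbol, with earlier results of these data known, as targets of cell cycle arrest, apoptosis and feedback. All 9 were found among the 20030 genes of the table. RNA was sequenced from HepG2, an established human hepatoma line with functional p53, in 12 libraries. The groups were cells given 8HQ and FAC together (8HQ_FAC), FAC alone, 8HQ alone or DMSO, the vehicle, with 3 libraries each, and the labels give 10 µM and 6 h for every group. The abbreviations are not spelled out in the labels; in iron research they are the common short forms of 8-hydroxyquinoline, a compound that binds metals and shuttles them through membranes, and of ferric ammonium citrate, a source of iron. Whether the 3 libraries of each group are separate cultures is not stated, so the spread that the p-values measure is that between these libraries and may be technical.

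p53 is kept at a low level by MDM2, the ubiquitin ligase that marks it for degradation, and it builds up when DNA damage or other stress loosens that hold. It then raises genes that stop the cell cycle (CDKN1A, GADD45A), genes that lower the threshold for apoptosis (BBC3, PMAIP1), genes of repair and metabolic adaptation (SESN1, TP53I3), and MDM2 itself, which closes the loop. Several of these genes are also known to be raised by other stress pathways without p53. MDM2 carries an internal promoter that p53 uses. Whether p53 or another pathway lay behind any change reported here was not tested. The design lets the p53 targets be followed under each agent alone and under both.

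Levels are in FPKM, fragments or reads per kilobase of transcript and scaled to the mapped total, as the authors deposited them. Changes are differences of log2(FPKM + 1), which understate the change of a gene with a low level, tested with limma over 10823 genes that reached 1 FPKM in at least 3 libraries. All 9 genes passed that filter, and a gene is called where the adjusted p over all tested genes is under 0.05. Estimated from the lowest values, depth was 15200000 to 16600000 mapped fragments or reads in 8HQ_FAC libraries, 18100000 to 19400000 in FAC, 18300000 to 19500000 in 8HQ and 18800000 to 19700000 in DMSO libraries; the estimate is rough, with quartiles over genes of 15400000 and 25800000 for DMSO replicate 1. All 10 hepatocyte markers were above 0 in every library. They summed to 23230 to 23917 FPKM in 8HQ_FAC, 16585 to 17021 in FAC, 14781 to 14845 in 8HQ and 15052 to 15286 FPKM in DMSO libraries. The sum hides a split in 8HQ_FAC vs DMSO, where 8 were called higher and 2 lower. Those lower were APOB, at 45.5% of DMSO, and HNF4A, at 37.0%. In bulk RNA, a change in cell number and one in RNA per cell cannot be told apart. Of 16 leukocyte, Kupffer and red cell markers, 6 to 8 were above 0 in 8HQ_FAC, 6 to 9 in FAC, 16 in 8HQ and 15 to 16 in DMSO libraries, and TYROBP, CD3E, HLA-DRA, S100A8, CD163 and HBB read 0 in each of the 6 libraries that had FAC. The 16 markers summed to 1972 to 1992 FPKM in 8HQ_FAC, 1178 to 1262 in FAC, 1064 to 1118 in 8HQ and 1181 to 1225 in DMSO libraries. Without LYZ and CD68, which were high in every library, they came to 3.70 to 7.97 FPKM in 8HQ_FAC, 1.30 to 2.21 in FAC, 6.93 to 47.6 in 8HQ and 5.50 to 23.6 in DMSO libraries; the number of markers above 0 splits by FAC with no overlap, so it and FAC cannot be told apart.

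The start sites of 5 windows are shown first, because these members carry the clearest changes or hold letters close to a p53 response element. RefSeq, build GRCh38.p14, gives windows of 300 bases, 250 before and 50 after a start site, for 8 of the 9 members, 14 windows in all; GADD45A is named only. Motifs were searched on both strands. Those of general promoters were the TATA box, searched with the letters TATAAA, and the GC box, for which the search used the letters GGGCGG. Those of stress-activated factors were the AP-1 site, which was spelled TGANTCA in the search, the cyclic AMP response element, spelled TGACGTCA, the E-box, looked for with the letters CACGTG, and the C/EBP-ATF composite, spelled TGATGCAA. The p53 response element was searched with its repeated sites adjacent and at most 3 mismatches, a limit chosen after the windows had been seen. Capitals mark every match, and GC boxes of CDKN1A at -45 and -40 overlap. The windows are a downstream start of MDM2 at chr12:68808767-68809066 (plus strand), a downstream start of SESN1 at chr6:109008939-109009238 (minus strand), PMAIP1 at chr18:59899746-59900045 (plus), CDKN1A at chr6:36678464-36678763 (plus) and GADD45B at chr19:2475877-2476176 (plus), each read 5′ to 3′ in the direction of transcription.
MDM2: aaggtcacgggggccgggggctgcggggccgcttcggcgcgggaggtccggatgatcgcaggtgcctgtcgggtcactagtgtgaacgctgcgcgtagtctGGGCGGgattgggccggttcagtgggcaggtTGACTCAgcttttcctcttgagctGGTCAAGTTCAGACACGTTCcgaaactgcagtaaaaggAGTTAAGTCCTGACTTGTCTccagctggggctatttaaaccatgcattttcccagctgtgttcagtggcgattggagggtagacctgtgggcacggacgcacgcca
SESN1: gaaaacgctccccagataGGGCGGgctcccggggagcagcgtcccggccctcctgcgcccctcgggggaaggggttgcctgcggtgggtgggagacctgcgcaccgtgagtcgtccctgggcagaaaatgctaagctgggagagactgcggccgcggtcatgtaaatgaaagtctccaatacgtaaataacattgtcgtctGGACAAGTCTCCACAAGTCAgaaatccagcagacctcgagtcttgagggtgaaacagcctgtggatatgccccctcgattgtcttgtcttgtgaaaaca
PMAIP1: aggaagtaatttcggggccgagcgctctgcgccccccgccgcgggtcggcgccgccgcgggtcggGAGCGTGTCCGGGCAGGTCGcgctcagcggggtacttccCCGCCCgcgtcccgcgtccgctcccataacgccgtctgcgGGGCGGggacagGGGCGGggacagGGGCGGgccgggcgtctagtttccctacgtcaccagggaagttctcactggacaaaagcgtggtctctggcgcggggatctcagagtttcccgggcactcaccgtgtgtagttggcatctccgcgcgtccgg
CDKN1A: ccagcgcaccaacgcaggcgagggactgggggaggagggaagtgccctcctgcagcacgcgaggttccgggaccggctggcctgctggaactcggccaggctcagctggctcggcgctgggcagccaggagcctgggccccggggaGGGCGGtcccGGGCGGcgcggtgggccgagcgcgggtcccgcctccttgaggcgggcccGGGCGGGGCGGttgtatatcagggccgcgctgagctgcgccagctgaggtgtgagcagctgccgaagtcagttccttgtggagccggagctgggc
GADD45B: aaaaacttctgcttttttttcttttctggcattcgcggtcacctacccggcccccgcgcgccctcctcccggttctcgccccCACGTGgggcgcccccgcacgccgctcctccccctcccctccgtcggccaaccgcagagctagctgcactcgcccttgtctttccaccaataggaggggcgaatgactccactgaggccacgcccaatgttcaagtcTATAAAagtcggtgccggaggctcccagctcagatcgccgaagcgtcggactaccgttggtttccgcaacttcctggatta

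The MDM2 window held a pair of matches to the p53 response element, at -94 with 2 mismatches and at -56 with 3 mismatches, besides an AP-1 match at -118. SESN1 held a match at -49 and PMAIP1 one at -185, each with 3 mismatches. Of all 35114 windows of this length, 5.2% held such a match, 7.71% an AP-1 match, 7.26% an E-box, 11.5% a TATA box and 45.0% a GC box. GADD45B had an E-box at -168 and a TATA box at -31, and the CDKN1A window held GC boxes alone among the motifs searched. No member window matched the cyclic AMP response element (1.85% of all windows) or the C/EBP-ATF composite (0.866%), which says only that these letters are not in these windows. So 2 of the members with a p53 match, MDM2 and SESN1, were lower in 8HQ_FAC than in DMSO libraries on the deposited scale. The other, PMAIP1, was higher. The fall of MDM2 was gone after removal of the trend on transcript length (log2 change 0.04). The windows reach 250 bases before a start site, so a p53 response element farther away, in CDKN1A or any other member, was not searched for. They give no measure of binding.

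Given together, 8HQ and FAC split the 9 genes. CDKN1A, PMAIP1, GADD45A and GADD45B rose 3.77- to 17.8-fold over DMSO in mean FPKM, while MDM2, SESN1, ZMAT3, BBC3 and TP53I3 fell on the deposited scale. Of the falls, those of MDM2, BBC3 and TP53I3 turned sign under at least 1 other scaling of the libraries, and the split of calls ran between 4 higher and 5 lower and 6 higher and 2 lower. The genes that rose are those of growth arrest and the BH3-only gene PMAIP1, and the negative regulator MDM2 was not among them. All 9 were thus called, 4 higher and 5 lower, in a comparison in which 84.3% of all tested genes were called, 27.5% higher and 56.7% lower, so the count alone does not set these genes apart. Of 10823 genes ordered by change, GADD45B ranked 7, PMAIP1 26, CDKN1A 30 and GADD45A 42 from the top. The members were chosen with earlier results of these data known, so their ranks are a description and not a test.

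**Figure D1:**
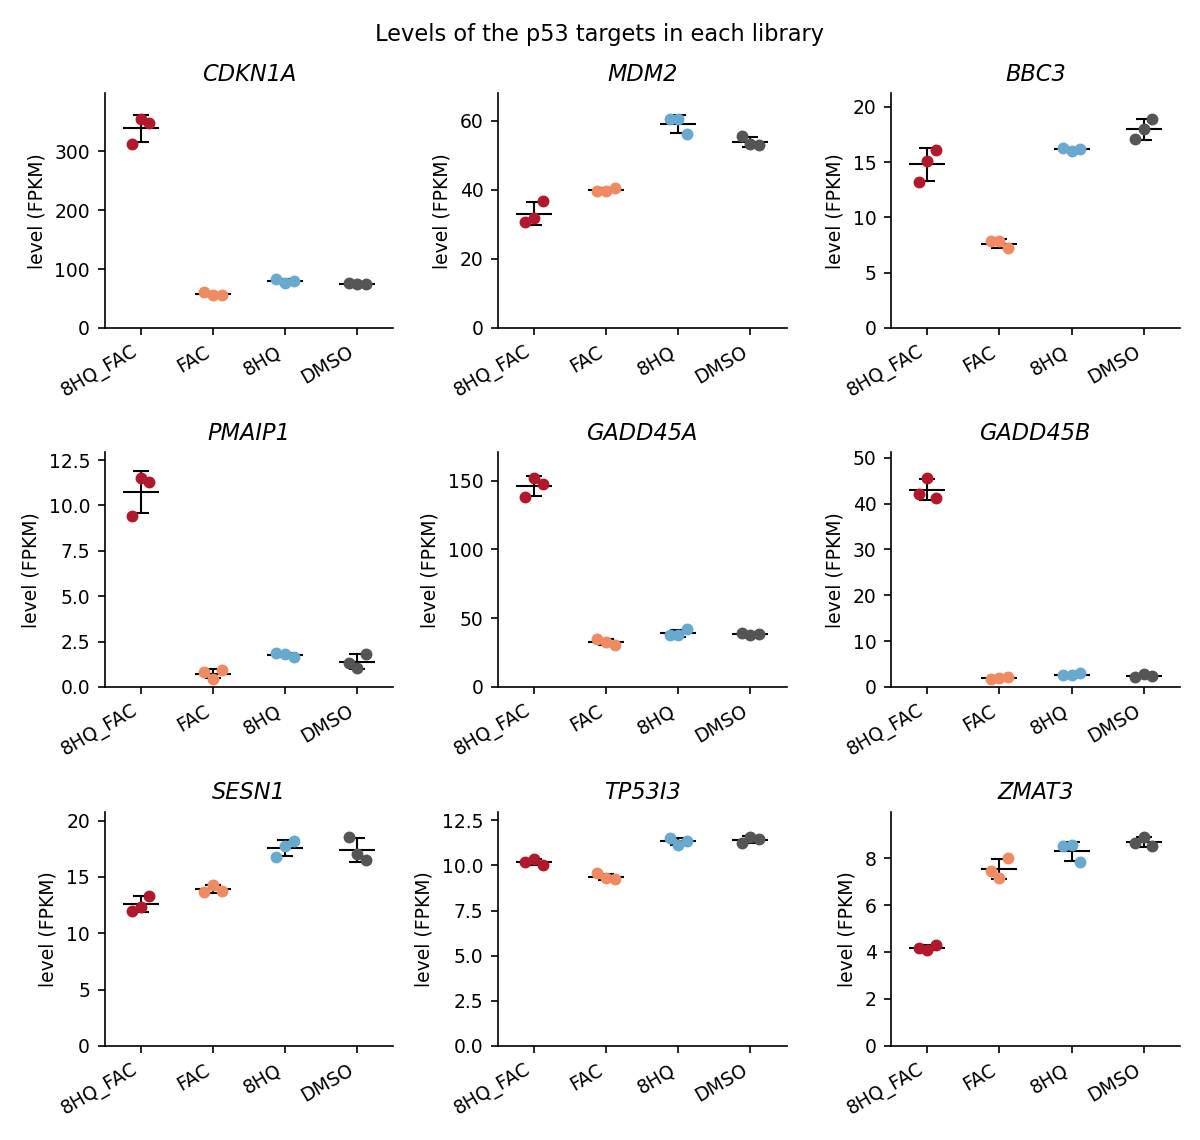
Level in FPKM of each of the 9 genes (vertical axes, each from 0) in the 8HQ_FAC, FAC, 8HQ and DMSO libraries (horizontal axes); points are libraries, and the lines are the mean and SD of 3. CDKN1A, PMAIP1, GADD45A and GADD45B stand far higher in 8HQ_FAC than in any other group, MDM2, SESN1 and ZMAT3 are lowest there, and BBC3 is lowest in FAC.

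CDKN1A encodes p21, the inhibitor of cyclin-dependent kinases through which p53 halts the cell cycle. Its level was 313, 356 and 348 FPKM in the 8HQ_FAC libraries, 60.3, 55.6 and 55.5 in FAC, 83.0, 76.1 and 80.1 in 8HQ, and 76.4, 73.8 and 75.3 FPKM in DMSO libraries. The 8HQ_FAC libraries lay far above all others, FAC libraries lay below all others, and 8HQ and DMSO overlapped. The mean was 339 ± 22.6 FPKM in 8HQ_FAC and 75.2 ± 1.31 FPKM in DMSO (SD, n = 3 each), 4.51-fold higher, with a log2 change of 2.16 (SE 0.05, adjusted p = 9.16e-15). CDKN1A made up 55.2% of the summed level of the 9 genes in 8HQ_FAC libraries, 33.4% in FAC, 33.8% in 8HQ and 33.1% in DMSO libraries; the sum was 614 ± 35.4, 171 ± 4.35, 236 ± 3.02 and 227 ± 3.06 FPKM in the same order.

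GADD45A and GADD45B encode small stress-induced proteins that bind cell cycle and repair partners and activate a kinase upstream of p38 and JNK. GADD45B, which is better known as a target of NF-kB and TGF-beta than of p53, had 42.2, 45.7 and 41.3 FPKM in 8HQ_FAC libraries, 1.62, 1.94 and 2.27 in FAC, 2.54, 2.55 and 2.93 in 8HQ, and 2.06, 2.92 and 2.28 FPKM in DMSO libraries. The 8HQ_FAC libraries stood far above all others, and DMSO overlapped both FAC and 8HQ. Its mean was 17.8-fold that of DMSO, the highest ratio among the 9 genes (log2 change 3.69, SE 0.09, adjusted p = 2.35e-14). GADD45A had 138, 152 and 148 FPKM in 8HQ_FAC libraries, 35.0, 32.7 and 30.4 in FAC, 37.4, 37.9 and 41.9 in 8HQ, and 39.6, 37.9 and 38.6 FPKM in DMSO libraries. It was 3.77-fold higher in 8HQ_FAC than in DMSO (log2 change 1.89, SE 0.05, adjusted p = 6.57e-14), with every 8HQ_FAC library above all the rest, every FAC library below them, and 8HQ and DMSO overlapping.

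PMAIP1 and BBC3 encode NOXA and PUMA, BH3-only proteins that neutralise survival members of the BCL2 family. PMAIP1 had 9.41, 11.5 and 11.3 FPKM in 8HQ_FAC libraries, 0.841, 0.444 and 0.921 in FAC, 1.87, 1.81 and 1.65 in 8HQ, and 1.31, 1.03 and 1.83 FPKM in DMSO libraries. It rested on few reads outside 8HQ_FAC: at the estimated depth, about 279 to 366 in 8HQ_FAC, 17 to 32 in FAC, 60 to 69 in 8HQ and 38 to 70 in DMSO libraries. Its mean was 7.75-fold that of DMSO in 8HQ_FAC, and the log2 change of 2.31 (SE 0.12, adjusted p = 6.34e-11) carried the widest error of the 9. BBC3 had 13.2, 15.1 and 16.1 FPKM in 8HQ_FAC libraries, 7.87, 7.82 and 7.19 in FAC, 16.2, 16.0 and 16.2 in 8HQ, and 17.1, 17.97 and 18.9 FPKM in DMSO libraries. The 8HQ_FAC and 8HQ ranges overlapped while DMSO lay above both, and the log2 change of BBC3 in 8HQ_FAC vs DMSO was -0.27 (SE 0.06, adjusted p = 0.000637), which turned to 0.15 with median centring.

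MDM2, the ligase in the feedback loop, had 30.8, 31.8 and 36.7 FPKM in 8HQ_FAC libraries, 39.6, 39.7 and 40.5 in FAC, 60.5, 60.6 and 56.1 in 8HQ, and 55.6, 53.3 and 52.8 FPKM in DMSO libraries. The 4 groups did not overlap and ran, from low to high, 8HQ_FAC, FAC, DMSO and 8HQ. Its mean of 33.1 ± 3.20 FPKM in 8HQ_FAC was 61.4% of the 53.9 ± 1.48 FPKM in DMSO (SD, n = 3 each; log2 change -0.69, SE 0.05, adjusted p = 5.55e-09). So, on the deposited scale, the libraries with the highest CDKN1A were those with the lowest MDM2. After removal of the trend on transcript length this no longer held, as the log2 change of MDM2 in 8HQ_FAC was 0.04 against DMSO and 0.41 against FAC.

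ZMAT3, a zinc finger protein that binds RNA, had 4.16, 4.09 and 4.31 FPKM in 8HQ_FAC libraries, 7.45, 7.14 and 8.02 in FAC, 8.50, 8.55 and 7.82 in 8HQ, and 8.63, 8.91 and 8.52 FPKM in DMSO libraries. The 8HQ_FAC libraries lay below all others, and FAC overlapped 8HQ but not DMSO. It fell to 48.2% of DMSO in 8HQ_FAC, the deepest fall of the 9 on the deposited scale (log2 change -0.90, SE 0.05, adjusted p = 1.27e-10). SESN1, a sestrin that restrains the growth kinase complex mTORC1, had 11.99, 12.4 and 13.3 FPKM in 8HQ_FAC libraries, 13.6, 14.3 and 13.8 in FAC, 16.8, 17.7 and 18.2 in 8HQ, and 18.6, 17.1 and 16.5 FPKM in DMSO libraries. The libraries with FAC lay below those without it for SESN1, and 8HQ and DMSO overlapped (8HQ_FAC vs DMSO log2 change -0.44, SE 0.05, adjusted p = 6.67e-07). TP53I3, a quinone reductase tied to p53-driven apoptosis, had 10.2, 10.3 and 10.0 FPKM in 8HQ_FAC libraries, 9.56, 9.29 and 9.22 in FAC, 11.5, 11.1 and 11.3 in 8HQ, and 11.2, 11.6 and 11.5 FPKM in DMSO libraries. The FAC libraries were lowest, 8HQ_FAC came next, and 8HQ and DMSO overlapped above them. It was at 89.1% of DMSO in 8HQ_FAC (log2 change -0.15, SE 0.04, adjusted p = 0.0013), which turned to 0.21 with quantile normalization and 0.27 with median centring.

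**Figure D2:**
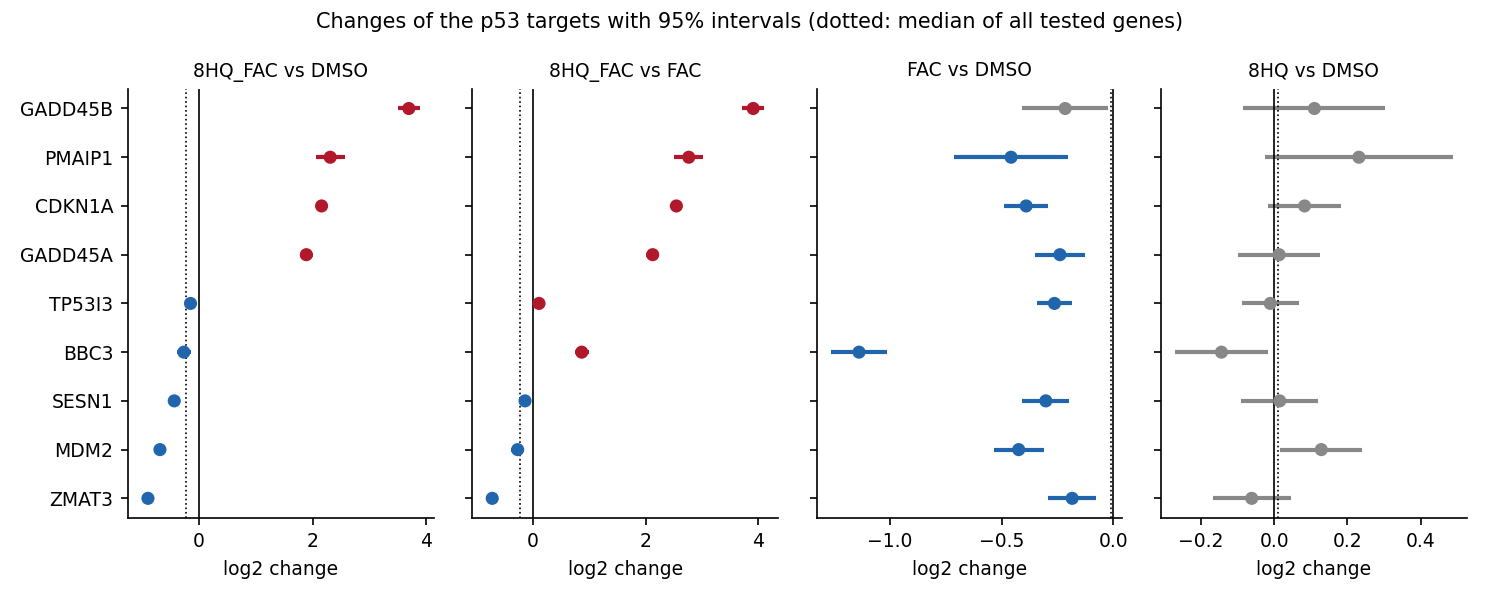
Log2 change (horizontal axes) of the 9 genes in 8HQ_FAC vs DMSO, 8HQ_FAC vs FAC, FAC vs DMSO and 8HQ vs DMSO, with 95% intervals from limma; red is called higher, blue called lower, grey not called, and the dotted line is the median of all tested genes. The panels have different scales: the first reaches 3.69 for GADD45B, and the last spans -0.14 for BBC3 to 0.23 for PMAIP1.

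The signs of the small changes depend on how libraries are put on one scale. The median of all tested genes in 8HQ_FAC vs DMSO was -0.23 as deposited, -0.003 with quantile normalization, 0.18 with median centring, -0.50 with equal sums of FPKM and 0.01 after removal of the trend on transcript length. Relative to the deposited median, GADD45B stood 3.93 higher, PMAIP1 2.54, CDKN1A 2.39 and GADD45A 2.12, ZMAT3 stood at -0.67, MDM2 at -0.46, SESN1 at -0.21, BBC3 at -0.04 and TP53I3 at 0.08. The 4 genes that rose did so under all 5 scalings, with the lowest changes 3.40 for GADD45B, 2.04 for PMAIP1, 1.75 for CDKN1A and 1.56 for GADD45A. Of the genes that fell, ZMAT3 alone kept its direction and its call in 8HQ_FAC vs DMSO under all 5; MDM2 turned to 0.04 (adjusted p = 0.48) after removal of the length trend, TP53I3 to 0.21 with quantile normalization and 0.27 with median centring, and BBC3 to 0.15 with median centring (-0.01 and not called with quantile normalization). SESN1 kept its sign but went to -0.02 with median centring (adjusted p = 0.678), so the split of the calls was 4 higher and 5 lower as deposited, 5 and 3 with quantile normalization, 6 and 2 with median centring, 4 and 5 with equal sums, and 4 and 4 after removal of the length trend.

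**Figure D3:**
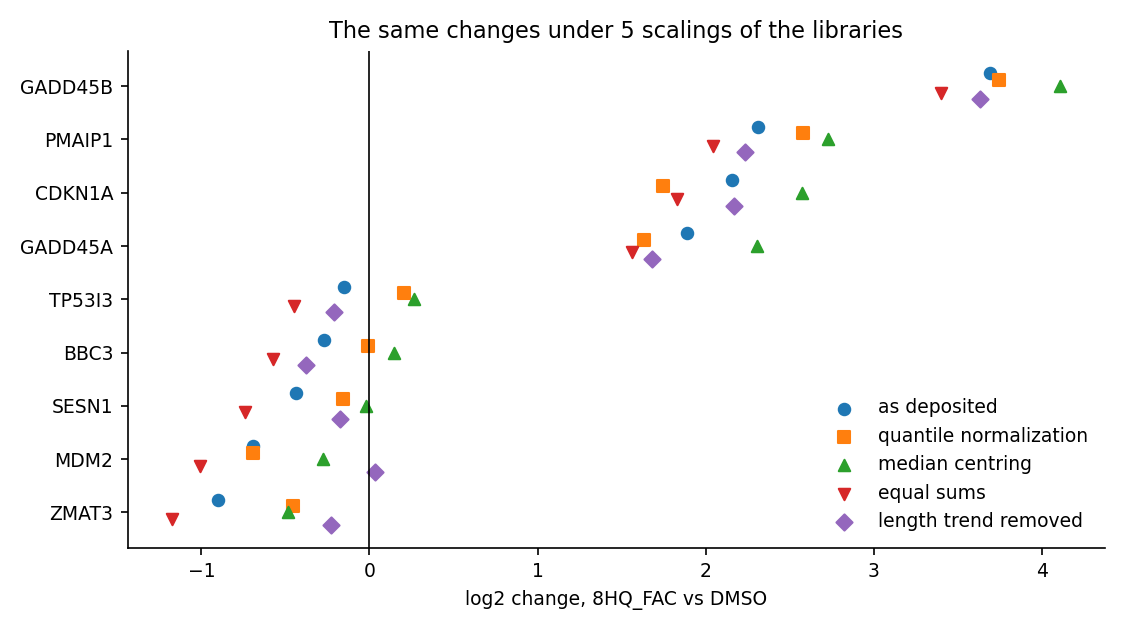
Log2 change in 8HQ_FAC vs DMSO (horizontal axis) of each of the 9 genes under 5 scalings of the libraries, marked by symbol. CDKN1A, PMAIP1, GADD45A and GADD45B stay at 1.56 or above under every scaling, while TP53I3, BBC3 and MDM2 fall on both sides of 0.

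Transcript length moved with these changes. Across 10761 tested genes with an annotated length, the Spearman correlation of the longest transcript with the log2 change was -0.49 in 8HQ_FAC vs DMSO, -0.11 for FAC against DMSO, and 0.02 for 8HQ against DMSO; it is a description across genes, which are not independent replicates. The longest annotated transcripts were 12633 bases for MDM2 and 9406 for ZMAT3, whose bin, the longest of 10 of equal size, had a median change of -0.70 in 8HQ_FAC vs DMSO. Less the median of its own length bin, MDM2 was at 0.01, ZMAT3 at -0.20, SESN1 (3509 bases) at -0.20, TP53I3 (1998) at -0.28 and BBC3 (1838) at -0.40. On the same footing CDKN1A (2267 bases) was at 2.16, PMAIP1 (1948) at 2.18, GADD45A (1496) at 1.48 and GADD45B (2007) at 3.56. For MDM2, length and treatment cannot be told apart here.

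**Figure D4:**
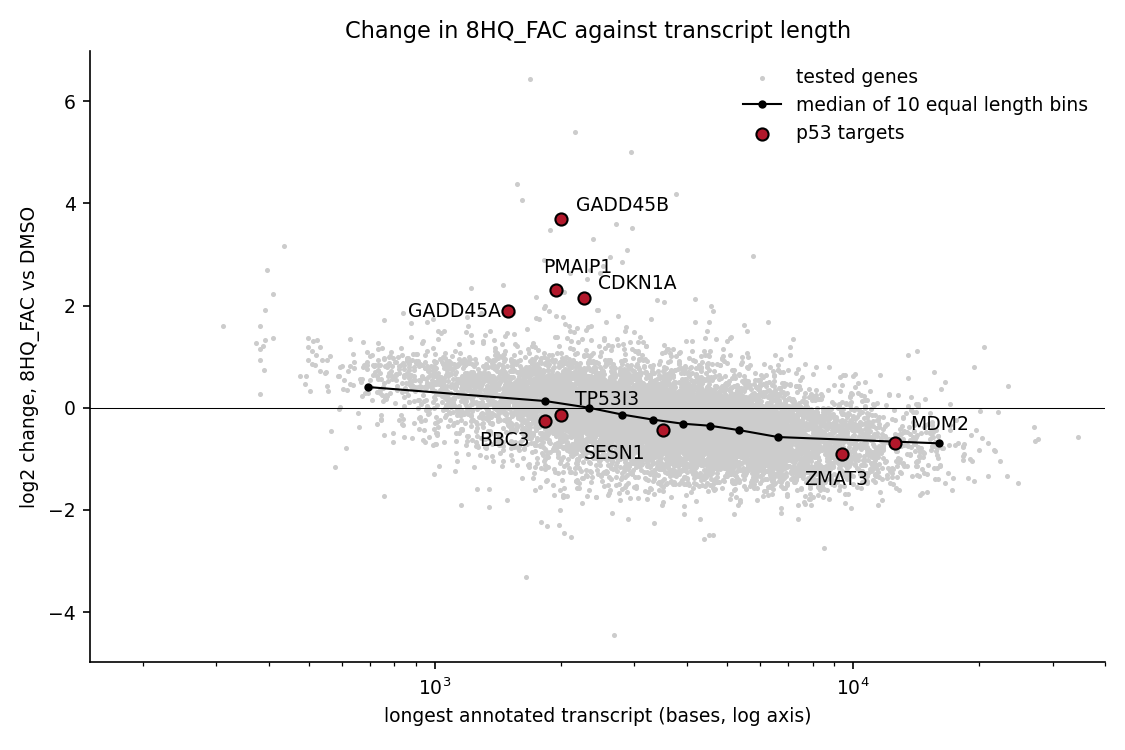
Log2 change in 8HQ_FAC vs DMSO (vertical axis) against the longest annotated transcript in bases (horizontal log axis); grey points are tested genes, the line joins the medians of 10 length bins of equal size, and the 9 genes are named. MDM2 sits on the line at 12633 bases, and the 4 genes that rose sit well above it between 1496 and 2267 bases.

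FAC alone lowered 8 of the 9 genes. Compared with DMSO, 0 were called higher, where 54.0% of all tested genes were called, 24.8% higher and 29.2% lower, and the members' median change was -0.30 against -0.01 over all genes. BBC3 fell most, to 7.63 ± 0.379 FPKM in FAC against 17.99 ± 0.940 in DMSO libraries (SD, n = 3 each; log2 change -1.14, SE 0.06, adjusted p = 1.03e-09), and it ranked 52 from the lowest of all tested genes. CDKN1A fell to 76.0% of DMSO (log2 change -0.39, SE 0.05, adjusted p = 6.25e-06) and MDM2 to 74.1% (-0.42, SE 0.05, adjusted p = 8.97e-06), so the arrest gene and the feedback gene fell side by side. The changes of PMAIP1 (-0.46), SESN1 (-0.30), TP53I3 (-0.26), GADD45A (-0.24) and ZMAT3 (-0.18) had adjusted p of 2.83e-05 to 0.0059. GADD45B, at -0.22 (SE 0.09, adjusted p = 0.0573), was the gene not called; it was called with equal sums of FPKM (0.0344), a pseudocount of 0.1 (0.0481), and without DMSO replicate 1 (0.0197) or FAC replicate 3 (0.018). No scaling turned a sign here. Fewer blood cell markers were above 0 in FAC libraries, 6 to 9 of 16, than in DMSO libraries, 15 to 16, and their part in these changes was not tested.

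8HQ alone moved none of the 9 genes past the threshold. In 8HQ vs DMSO, limma called 0 of 9 at adjusted p of 0.185 to 0.916, in a comparison where 4.91% of all tested genes were called. At an unadjusted p under 0.05 there were 2 of the 9, MDM2 (0.13, 95% interval 0.02 to 0.24) and BBC3 (-0.14, -0.27 to -0.02), and 2145 of all tested genes. The interval was -0.02 to 0.18 for CDKN1A, -0.10 to 0.12 for GADD45A, -0.08 to 0.30 for GADD45B and -0.03 to 0.49 for PMAIP1, so rises of the size seen in 8HQ_FAC lie outside all 4 intervals. The ranges of 8HQ and DMSO libraries did not overlap for MDM2 and BBC3 and overlapped for the other 7 genes. How many of all tested genes separate in this way was not counted, so this does not set the 2 genes apart.

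Adding 8HQ to FAC raised 5 of the 8 genes that FAC alone had lowered. In 8HQ_FAC vs FAC all 9 genes were called, 6 higher and 3 lower, against 82.9% of all tested genes, 26.8% higher and 56.0% lower. GADD45B was 22.2-fold, PMAIP1 14.6-fold, CDKN1A 5.93-fold and GADD45A 4.47-fold higher in mean FPKM. BBC3 joined them at 1.94-fold (log2 change 0.87, SE 0.06, adjusted p = 2.06e-09), with 14.8 ± 1.46 FPKM in 8HQ_FAC and 7.63 ± 0.379 in FAC libraries (SD, n = 3 each). TP53I3 was at 0.11 (adjusted p = 0.0109), a change that became -0.15 with equal sums of FPKM and 0.05, not called, after removal of the length trend. ZMAT3 fell again (-0.72, adjusted p = 2.35e-09), a call lost after removal of the length trend (-0.10, adjusted p = 0.0724). MDM2 was at -0.27 (adjusted p = 0.000222), which turned to 0.10 with median centring and 0.41 after removal of the length trend. SESN1 was at -0.14 (adjusted p = 0.0194); its call was lost with no filter (0.051), without FAC replicate 2 (0.0709) and without 8HQ_FAC replicate 1 (0.0857) or 2 (0.0543), and its sign turned under 3 scalings.

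The comparison of 8HQ_FAC with 8HQ alone shares the 8HQ_FAC libraries with the comparison above against DMSO. Of the 9 genes 4 were called higher and 4 lower, where 84.4% of all tested genes were called, 26.8% higher and 57.6% lower. GADD45B changed by 3.58, PMAIP1 by 2.08, CDKN1A by 2.07 and GADD45A by 1.87, while ZMAT3 was at -0.84, MDM2 at -0.82, SESN1 at -0.45 and TP53I3 at -0.14. The calls of MDM2 (-0.09 after removal of the length trend) and SESN1 (-0.03 with median centring) were lost under 1 scaling each, and TP53I3 turned to 0.23 with quantile normalization and 0.28 with median centring. BBC3, at -0.12, was not called (adjusted p = 0.0639); it was called lower without 8HQ_FAC replicate 3 (-0.18, adjusted p = 0.0106), with equal sums (-0.43) and after removal of the length trend (-0.22), and called higher with quantile normalization (0.14) and median centring (0.30).

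The effect of 8HQ with FAC was set against its effect without FAC in the interaction, which was called for 76.7% of all tested genes, 23.4% higher and 53.3% lower. Of the 9 genes it was positive and called for 6 and negative and called for 2. It was 3.80 for GADD45B (SE 0.13, adjusted p = 4.9e-12), 2.53 for PMAIP1 (SE 0.17), 2.46 for CDKN1A (SE 0.07), 2.11 for GADD45A (SE 0.07) and 1.01 for BBC3 (SE 0.08, adjusted p = 3.74e-08), and these 5 kept sign and call under every scaling. ZMAT3 was at -0.66 and MDM2 at -0.40; after removal of the length trend they went to -0.02 (adjusted p = 0.762) and 0.29, and MDM2 was at -0.02 with median centring (adjusted p = 0.777). TP53I3, at 0.12 (adjusted p = 0.0426), turned to -0.14 with equal sums, lost its call after removal of the length trend (0.07, adjusted p = 0.244), and lost it without replicate 2 or 3 of DMSO, 8HQ or FAC and without replicate 1 or 2 of 8HQ_FAC, at adjusted p of 0.0607 to 0.0895. It was also lost without DMSO replicate 3 and 8HQ replicate 1, those with the most HBB in their groups (adjusted p = 0.0735). SESN1 was at -0.15 (adjusted p = 0.0618), and was called without DMSO replicate 1 (0.0161), 8HQ replicate 1 (0.0376) or 8HQ_FAC replicate 3 (0.0208). With equal sums SESN1 was called lower (-0.42), and with median centring it was called higher (0.22, adjusted p = 0.00699). It was at 0.10, not called, with quantile normalization and after removal of the length trend.

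Of 32 other direct p53 targets, all tested, 15 were higher and 13 lower in 8HQ_FAC vs DMSO, beside 27.5% and 56.7% of all tested genes, with a median change of 0.07 against -0.23 over all genes. PLK2, a polo-like kinase of the stress response, was the member of that list with the smallest adjusted p: 81.8 ± 4.66 FPKM in 8HQ_FAC and 6.27 ± 0.369 in DMSO (SD, n = 3 each), a log2 change of 3.51 (SE 0.07, adjusted p = 2.98e-15) near that of GADD45B. PERP, a membrane protein of desmosomes and apoptosis, rose by 0.83. AEN, a nuclease of apoptosis, was at -0.97, and PLK2, PERP and AEN kept their sign under all scalings. The split of the whole list did not hold: it was 18 higher and 10 lower with quantile normalization, 23 and 3 with median centring, 8 and 17 with equal sums and 19 and 7 after removal of the length trend. In FAC vs DMSO 8 of the 32 were higher and 20 lower, beside 24.8% and 29.2% of all tested genes, with a median of -0.25; 2 fell more than 2-fold, GDF15, a secreted stress hormone (-1.73), and EPHA2, a receptor kinase (-1.12), named for their size after their values had been seen. In 8HQ vs DMSO, where 4.91% of all tested genes were called, AIFM2, GDF15 and XPC were higher (0.24, 0.17 and 0.16) and RPS27L was lower (-0.17). The split there was 3 higher and 1 lower with median centring. It was 2 and 1 with quantile normalization, with equal sums and after removal of the length trend.

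**Figure D5:**
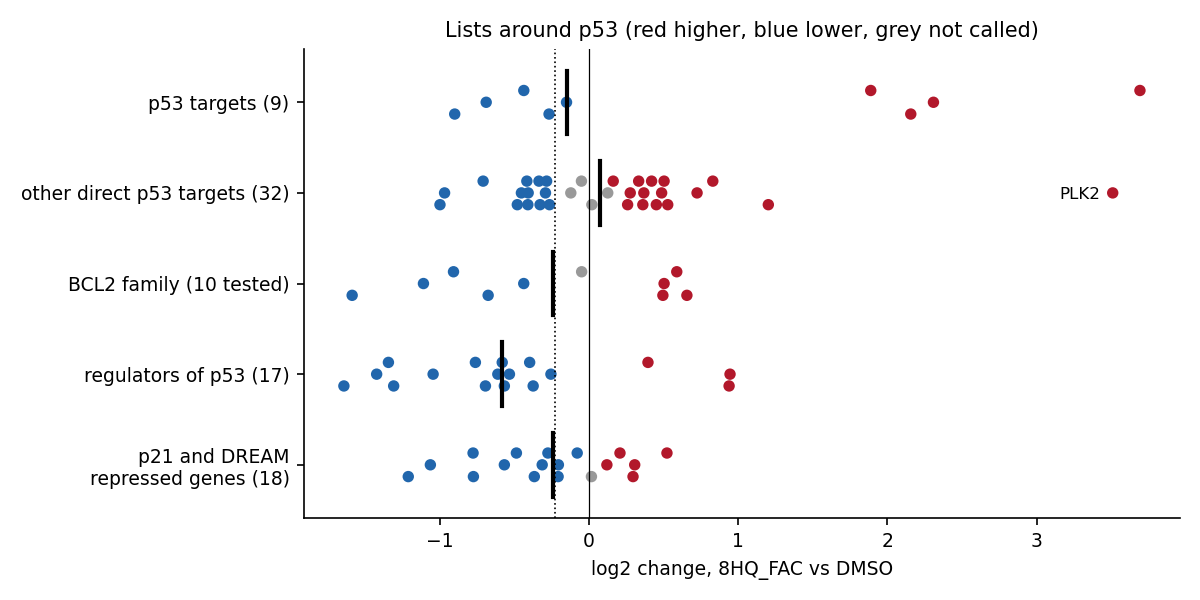
Log2 change in 8HQ_FAC vs DMSO (horizontal axis) of tested genes in 5 lists around p53; each point is a gene, red called higher, blue called lower and grey not called, the thick bar is the list's median and the dotted line the median of all tested genes, -0.23. The 4 genes that rose and PLK2 stand far to the right, and 14 of the 17 regulators of p53 lie left of 0 on the deposited scale.

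Of 17 regulators of the p53 protein, 14 were called lower and 3 higher in 8HQ_FAC vs DMSO, where 56.7% of all tested genes were called lower and 27.5% higher, with a median of -0.58 against -0.23 over all genes. HIPK2, a kinase that phosphorylates p53, was at -1.64, and EP300, an acetyltransferase and co-activator of p53, at -1.35. RPL5 and RPL11, ribosomal proteins that can bind and block MDM2, both rose by 0.94, and CHEK2, a kinase of the DNA damage checkpoint, rose by 0.39. The split was 4 higher and 11 lower with quantile normalization, 4 and 10 with median centring, 2 and 14 with equal sums, and 6 and 9 after removal of the length trend; HIPK2, EP300, RPL5, RPL11 and CHEK2 kept their signs. In FAC vs DMSO 5 were higher (ATM, ATR, USP7, RPL5 and RPL11) and 7 lower, beside 24.8% and 29.2% of all tested genes. The list's median there was -0.01, as was that of all genes. In 8HQ vs DMSO limma called 0 of 17, where 4.91% of all tested genes were called. At an unadjusted p under 0.05 there were 3 of the 17, and 2145 of the 10823 tested genes.

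In the BCL2 family, on which NOXA and PUMA act, 10 of 12 genes were tested, BCL2 and HRK being too low. The survival genes MCL1 (-1.11), BCL2L2 (-0.91) and BCL2L1 (-0.68) fell in 8HQ_FAC vs DMSO, as did the death genes BMF (-1.59) and BAK1 (-0.44). BID (0.66), BCL2L11 (0.59), BAX (0.50) and BAD (0.49), all of which promote death, rose. That makes 4 higher and 5 lower of 10 tested, in a comparison that called 84.3% of all tested genes, with a median of -0.24, and all 9 kept their sign under the 5 scalings. MCL1, the main partner of NOXA, had 33.0 ± 2.17 FPKM in 8HQ_FAC, 43.1 ± 1.06 in FAC, 63.8 ± 0.422 in 8HQ and 72.4 ± 2.12 FPKM in DMSO libraries (SD, n = 3 each). In FAC vs DMSO BAX and BID rose and BCL2L1, BCL2L11, BCL2L2, BMF and MCL1 fell, 2 higher and 5 lower of 10 tested. Over all tested genes 24.8% were called higher and 29.2% lower in FAC vs DMSO. In 8HQ vs DMSO, where 4.91% of all tested genes were called, BAK1 rose and BCL2L1 and MCL1 fell.

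Of 6 close relatives of the members 3 were tested, and 1 was higher and 2 lower in 8HQ_FAC vs DMSO, beside 27.5% and 56.7% of all tested genes. Of these, SESN2 was also counted above among the other direct p53 targets, and MDM4 among the regulators of p53. CDKN1B, which encodes p27, a kinase inhibitor related to p21, was at -1.05 in 8HQ_FAC vs DMSO, with 14.5 ± 0.506 FPKM in 8HQ_FAC and 31.1 ± 0.0763 in DMSO libraries (SD, n = 3 each). MDM4, the partner of MDM2, was at -0.53, which became 0.15 after removal of the length trend. SESN2, a sestrin best known as a target of the amino acid response, was at 0.45, opposite in sign to SESN1, with 22.5 ± 1.42 FPKM in 8HQ_FAC, 9.52 ± 0.0533 in FAC, 15.9 ± 0.778 in 8HQ and 16.2 ± 0.139 in DMSO libraries. CDKN1C, GADD45G and SESN3 did not pass the filter on low values.

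p21 is known to hold down cell cycle genes through the DREAM repressor complex. Of 18 such genes 5 were higher and 12 lower in 8HQ_FAC vs DMSO, shares near the 27.5% and 56.7% of all tested genes, with a median of -0.24 against -0.23 over all genes. KIF23, a kinesin of cytokinesis, was at -1.06, AURKA, a mitotic kinase, and CCNA2, cyclin A2, both at -0.78, and BUB1, a checkpoint kinase, at -0.49, each with the same sign under all scalings. CDC20 (0.52), BIRC5 (0.31), MCM5 (0.29), CCNB2 (0.21) and AURKB (0.12) were higher, and of these CDC20 alone kept its sign under all scalings. With equal sums of FPKM the split was 1 higher and 15 lower, and with median centring 10 higher and 5 lower. With FAC alone, limma called 8 of these 18 genes above DMSO and 5 below it, CDK1, CCNE2, CHEK1 and MYBL2 among the latter. The matching shares over all tested genes were 24.8% and 29.2%, and the median change of the list was 0.04. Whether the level of CDKN1A had a part in these changes was not tested. For 8HQ alone against DMSO limma called 0 of 18, where 4.91% of all tested genes were called. At an unadjusted p under 0.05 there were 4 of the 18, and 2145 of the 10823 tested genes.

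Outside these lists, the tested genes whose log2 levels ran most like CDKN1A over the 12 libraries were IER5L, FOS, TMBIM6, DLX2 and HEXA, with Pearson r of 0.995 to 0.997. FOS, an immediate early transcription factor, had 148 ± 5.67 FPKM in 8HQ_FAC, 0.852 ± 0.400 in FAC, 2.55 ± 0.0601 in 8HQ and 2.56 ± 0.335 in DMSO libraries (SD, n = 3 each). Those most like MDM2 were MEF2D, MMS22L, TAF3, ZSCAN9 and SLC38A3, with r of 0.983 to 0.986. These values are a description of 4 group levels shared by many genes. By the annotation of GRCh38 (GENCODE 29), CDKN1A and SESN1 lie on chromosome 6, MDM2 on 12, BBC3 and GADD45B on 19, PMAIP1 on 18, GADD45A on 1, TP53I3 on 2 and ZMAT3 on 3. On the opposite strand, CDKN1A overlaps DINOL, SESN1 overlaps AL390208.1, MDM2 overlaps AC025423.4 and CPM, BBC3 overlaps MIR3190, and TP53I3 overlaps FAM228B. On the same strand, MDM2 overlaps the pseudogene AC025423.2 and BBC3 overlaps MIR3191. Whether strand was used in counting is not stated, so reads of these pairs cannot be told apart. Of the overlapping genes, CPM and FAM228B have values in the table: CPM was at most 0.0393 FPKM and FAM228B at most 0.535 FPKM in any library.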

How the data were processed

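Gene expression in 12 HepG2 libraries was analysed from the table of FPKM that the authors deposited, 1 value per gene and library with no replicates pooled. Reads were aligned with Bowtie 0.12.2, per the submitters' processing notes; for the program that made the FPKM, its annotation and the use of strand, no statement was found in the labels or the notes. The notes name mouse genome builds, although the cells are human, so the build behind every FPKM is not known. The deposited FPKM hold no counts, so no count test was run. Of 20030 genes, 27 symbols that a spreadsheet had turned into dates were restored, and no pair of libraries was identical. Genes at 1 FPKM or more in at least 3 libraries, 10823 or 54.0%, were taken as log2(FPKM + 1) and fitted with limma 3.58.1 (R 4.3.3, trended variance) over all 12 libraries, with 1 mean per group and Benjamini-Hochberg adjustment over all tested genes; intervals are 95%. The fit was tested on simulated data. Lengths are the longest GENCODE 29 transcript, found for 99.4% of tested genes. Promoter windows are RefSeq's (GRCh38.p14). Tables and figures were made with pandas 2.3.3, numpy 2.4.6 and matplotlib 3.10.9 under Python 3.11.15. Beside the 9 members, the text names up to 4 genes of each list, those of smallest adjusted p in 8HQ_FAC vs DMSO, all genes behind counts of 5 or fewer, and the 5 genes most like CDKN1A and MDM2. The members and lists were chosen with earlier results of these data known. The lists other than the members share SESN2, MDM4, BAX and CHEK1, each counted in every list that holds it. Some genes that this rule picks are not reported here by name.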

Additional observations from a re-analysis of the deposited data

Results flagged for a closer look

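For 8 of the 9 genes the effect of 8HQ differed between cells with FAC and cells without it, by limma's interaction term on the log2 scale. The difference was 3.80 for GADD45B, 2.53 for PMAIP1, 2.46 for CDKN1A, 2.11 for GADD45A and 1.01 for BBC3. It was 0.12 for TP53I3, -0.66 for ZMAT3 and -0.40 for MDM2. The interaction was called for 76.7% of all tested genes. After removal of the length trend ZMAT3 was at -0.02 and TP53I3 at 0.07, neither called, and MDM2 was at 0.29; TP53I3 also lost its call in 8 of 12 fits with 1 library left out.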

How the results depend on the processing

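Of 531 values of the 9 genes under another setting, 494 kept their direction and side of the threshold, and of 648 with 1 library left out, 626 did. CDKN1A, PMAIP1, GADD45A and GADD45B kept the direction and the call in all 3 comparisons of 8HQ_FAC and in the interaction under every setting run. The 19 reversals came from scaling. In 8HQ_FAC vs DMSO, TP53I3 was 0.21 with quantile normalization and 0.27 with median centring, BBC3 0.15 with median centring, and MDM2 0.035 after removal of the length trend. In 8HQ_FAC vs FAC, SESN1 was 0.12 with quantile normalization, 0.23 with median centring and 0.10 after removal of the length trend, MDM2 0.10 with median centring and 0.41 after removal of the length trend, and TP53I3 -0.15 with equal sums of FPKM. In 8HQ_FAC vs 8HQ, BBC3 was 0.14 and TP53I3 0.23 with quantile normalization, and 0.30 and 0.28 with median centring. In the interaction, SESN1 was 0.10 with quantile normalization, 0.22 with median centring and 0.10 after removal of the length trend, MDM2 0.29 after removal of the length trend, and TP53I3 -0.14 with equal sums. The cause was not tested.

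In 8HQ vs DMSO, leaving out 1 library gave -0.0369 to 0.0436 for GADD45A, -0.0191 to 0.061 for SESN1 and -0.0232 to 0.0004 for TP53I3. The count of all genes called there was 531, 343 with no filter, 257 to 564 with 1 library left out, and 231 without DMSO replicate 3 and 8HQ replicate 1, a setting chosen after seeing the data; 0 of the 9 genes were called in any of them.

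Deviations from the group means had r of -0.0756 to 0.0477 over 18 pairs of libraries of the same number. Over 36 pairs of different numbers r was -0.071 to 0.0911. With means of 3 libraries each, these values cannot settle whether the numbers pair the libraries, and the main fit used no pairing. With the number as a replicate block, TP53I3 in the interaction stayed at 0.12 but was not called (adjusted p = 0.0616), and GADD45B in FAC vs DMSO stayed at -0.22 and was called (0.0371). Without true counts, depth limits the low values of PMAIP1 most.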
